A study of Mus musculus with 6 samples.

Results

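Small nucleolar RNA host genes are transcription units whose introns carry small nucleolar RNAs (snoRNAs), and 10 of them are described here in the cerebral cortex of wild-type mouse embryos and embryos knocked out for Csmd3, which encodes a large transmembrane protein of the CUB and Sushi domain family. The members were Snhg1, Snhg3, Snhg6, Snhg8, Snhg11, Snhg12, Snhg14, Snhg15, Snhg17 and Snhg20. They were found by matching the Ensembl identifiers of the gene count table to these symbols in GENCODE release M21, which gave 10 of the 55401 gene entries. The list was selected on a shared function with the knockout against wild-type counts and fold changes of these same libraries known. The values of the members in that contrast are therefore given as a description, with no test of any member.

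Bulk RNA sequencing was carried out on 6 cortex libraries from embryonic day 18, 3 from wild-type (WT) and 3 from Csmd3-/- embryos. All embryos were of the C57BL/6 strain and were bred by mating heterozygous parents, and no treatment is named for either group. Neither the part of Csmd3 that was removed nor the way it was removed is stated in the labels. The labels number the replicates but do not say whether each library came from a separate embryo or litter, so the p-values measure only the spread between these libraries, which may be technical.

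A snoRNA host gene is transcribed and spliced like a messenger RNA gene, and each snoRNA is trimmed out of an excised intron and bound by a set of core proteins. C/D snoRNAs guide the methylation of ribose in ribosomal RNA and other RNAs, and H/ACA snoRNAs guide the conversion of uridine to pseudouridine. The spliced host RNA mostly encodes no conserved protein, and for many hosts it is degraded by nonsense-mediated decay, so its level follows both transcription and decay. Snhg11 and Snhg14 are known for high levels in neurons, and Snhg14 is the long imprinted transcript of the Prader-Willi and Angelman region that runs antisense to Ube3a.

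The deposited libraries held 54244288 to 68269607 estimated counts, with 24460 to 25122 genes above 0. Low counts clustered at multiples of 4, so 1 sequenced fragment may often have added about 4 counts, although counts of 1 to 3 were also common. Of 19844 genes tested with the quasi-likelihood test of edgeR, 1033 (5.21%) were higher and 503 (2.53%) were lower in the knockout at an adjusted p of 0.05. The median log2 fold change over the tested genes was 0.00. Csmd3 itself held 992, 765 and 867 counts in the WT libraries and 675, 653 and 543 in the knockout libraries, with a log2 fold change of -0.59 (SE 0.13, adjusted p = 0.0233, edgeR). The 3 knockout counts were lower than the 3 WT counts, and none was 0. The knockout libraries differed in choroid plexus transcripts. Ttr held 4, 0 and 0 counts in WT and 131, 2262 and 25057 counts in knockout libraries 1, 2 and 3. Knockout library 1 was thus also above WT, and leaving out libraries 2 and 3 does not leave a knockout library free of these transcripts.

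The members' own products are their snoRNAs. GENCODE M21 places 232 entries for snoRNAs or small Cajal body RNAs inside the 10 members, of which Snhg14 holds 208, Snhg1 holds 8, Snhg12 holds 5 and Snhg17 holds 3. Snhg3 and Snhg11 hold 2 each, and Snhg6, Snhg8, Snhg15 and Snhg20 hold 1 each. A search for a TGATGA C box and a CTGA D box found both in 196 of the 232, an ACA box close to the 3′ end was found in 13, and 23 matched neither pattern. The sequences below come from GENCODE M21 transcripts on mm10, are written 5′ to 3′, and have the boxes in capitals.

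The snoRNAs of Snhg11 and Snhg17, a pair of hosts that lie side by side on chromosome 2 and transcribe away from each other, are shown because their host levels are compared as a pair. They are Gm25187 at chr2:158378222-158378354 and Gm25129 at chr2:158379534-158379666 on the plus strand in Snhg11. In Snhg17 they are Gm24411 at chr2:158356424-158356554, Gm26003 at chr2:158358360-158358472 and Gm23925 at chr2:158359798-158359929 on the minus strand.
Gm25187: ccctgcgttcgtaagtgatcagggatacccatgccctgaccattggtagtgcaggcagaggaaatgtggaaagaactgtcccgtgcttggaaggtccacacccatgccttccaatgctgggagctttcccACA
Gm25129: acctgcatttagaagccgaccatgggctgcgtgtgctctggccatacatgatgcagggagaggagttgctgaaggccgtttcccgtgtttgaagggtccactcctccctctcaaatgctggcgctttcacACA
Gm24411: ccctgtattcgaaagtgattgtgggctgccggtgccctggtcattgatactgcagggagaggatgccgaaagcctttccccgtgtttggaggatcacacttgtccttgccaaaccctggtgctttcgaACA
Gm26003: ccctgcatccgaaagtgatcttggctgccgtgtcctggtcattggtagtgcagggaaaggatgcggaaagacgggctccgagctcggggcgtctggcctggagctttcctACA
Gm23925: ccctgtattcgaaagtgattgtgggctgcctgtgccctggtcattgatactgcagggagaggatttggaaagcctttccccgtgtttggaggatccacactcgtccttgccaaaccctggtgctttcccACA
All 5 matched the H/ACA pattern of the search, with ACA as the last 3 bases of the entry. In Snora61 of Snhg12 the ACA starts at base 125 of 130, and in Snora73a of Snhg3 at base 200 of 205, so that 3 bases follow it. Whether the annotated ends of the 5 entries are those of the mature RNAs was not tested. In global alignments Gm24411 and Gm23925 of Snhg17 were 93.9% identical, while Gm26003 of Snhg17 was 70.2% identical to Gm24411 and 69.7% identical to Gm23925. The Snhg11 pair was 68.4% identical, and the 6 pairs across the hosts ran from 60.4% to 75%. For comparison, Snora44 of Snhg12 was 57.2% to 59.7% identical to the same 3 Snhg17 sequences.

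The snoRNAs of Snhg12 and Snhg3, the other neighbouring hosts, show both classes. Snora61 at chr4:132310240-132310369 and Snord99 at chr4:132310691-132310764 lie on the plus strand in Snhg12, which also holds Snora44 and Snora16a, a locus that the annotation enters under 2 identifiers 1 base apart. Snora73b at chr4:132352322-132352526 and Snora73a at chr4:132352775-132352979 lie on the minus strand in Snhg3.
Snora61: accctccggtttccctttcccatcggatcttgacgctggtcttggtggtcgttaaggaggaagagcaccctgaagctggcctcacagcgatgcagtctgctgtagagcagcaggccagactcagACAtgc
Snord99: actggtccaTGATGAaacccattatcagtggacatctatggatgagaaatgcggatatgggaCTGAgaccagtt
Snora73b: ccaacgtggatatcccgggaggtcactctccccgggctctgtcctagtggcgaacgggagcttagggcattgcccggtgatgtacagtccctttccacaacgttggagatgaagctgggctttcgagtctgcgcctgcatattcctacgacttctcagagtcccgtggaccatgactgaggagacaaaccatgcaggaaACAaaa
Snora73a: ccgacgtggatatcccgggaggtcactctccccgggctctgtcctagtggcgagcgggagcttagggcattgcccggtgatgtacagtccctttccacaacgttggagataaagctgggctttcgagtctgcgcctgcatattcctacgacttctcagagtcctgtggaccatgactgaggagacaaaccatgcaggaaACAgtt
Snora73a and Snora73b were identical at 198 of 205 aligned bases (96.6%). They are H/ACA snoRNAs known for a role in cutting the ribosomal RNA precursor.

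Snhg14 is shown by its repeated guides. Its 208 snoRNA genes had 85 distinct sequences of 69 to 94 bases, and the commonest was shared by 33 genes. That sequence is given for Gm24866 at chr7:59393561-59393639 on the minus strand, and it belongs to the Snord115 family. Snord116l17 at chr7:59861731-59861824 on the same strand stands for the Snord116 family, the group lost in small Prader-Willi deletions.
Gm24866: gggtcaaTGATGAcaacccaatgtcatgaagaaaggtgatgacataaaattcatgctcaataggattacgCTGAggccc
Snord116l17: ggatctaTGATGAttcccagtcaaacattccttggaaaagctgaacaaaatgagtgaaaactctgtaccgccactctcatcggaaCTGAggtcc
Both carry a C box near the 5′ end and a D box near the 3′ end.

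The mature snoRNAs were hardly measured by these libraries. Of these 232 entries inside the members, 211 never held more than 2 counts in any library, 10 reached 12 counts in some library, and the highest count was 50. Snhg14 held 198 of the 211 and 1 of the 10, and reads from its identical copies cannot be told apart. All values below are therefore for reads counted to the host genes, and say nothing of the snoRNAs released from them. For Snhg1, Snhg8 and Snhg12 the annotated exons of all transcripts together cover the whole gene (2969, 853 and 2402 bases), so unspliced RNA could enter their counts. Annotated exons also cover most of Snhg20 (2795 of 2948 bases), Snhg17 (7052 of 7881) and Snhg11 (8521 of 10508). Unspliced RNA could enter those counts too. The host starts are also shown for Snhg11 and Snhg12, the members with the lowest log2 fold changes. These are RefSeq promoter sequences on GRCm38.p6 from 100 bases before to 25 bases after the annotated start, at chr2:158375613-158375737 for Snhg11 and chr4:132308578-132308702 for Snhg12, both on the plus strand. Capitals mark a pyrimidine run, defined as a C followed by at least 5 C or T bases between 10 bases before and 20 bases after the start, sense strand only.
Snhg11: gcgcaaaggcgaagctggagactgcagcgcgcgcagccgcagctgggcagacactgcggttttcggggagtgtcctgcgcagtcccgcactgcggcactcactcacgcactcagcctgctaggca
Snhg12: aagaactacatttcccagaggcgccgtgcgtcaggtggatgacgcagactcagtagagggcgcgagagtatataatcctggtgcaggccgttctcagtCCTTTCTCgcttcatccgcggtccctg
Such a run at the very start of an RNA is the mark of terminal oligopyrimidine transcripts, a class that includes ribosomal protein messengers and many snoRNA hosts. By this search it was present at the RefSeq start of Snhg12 and Snhg8, 2 of the 9 members with a promoter in the table, and in 22% of the 32851 promoters. The Snhg11 window held no such run. The letters TATAAA, on either strand from 40 to 11 bases before the start, were found in Snhg1 and Snhg8 and in 2.66% of all promoters. CACGTG and TGACGTCA, both palindromes, were each found in 1 member, Snhg15, against 7.15% and 1.79% of all promoters over the full 300 bases. The number of CG dinucleotides in the full window was 30 for Snhg8, 29 for Snhg15, 25 for Snhg1 and for Snhg20, 21 for Snhg11, 18 for Snhg12, 16 for Snhg3 and 14 for Snhg17, beside a median of 7 over all promoters. It was 2 for Snhg14, whose RefSeq start lies upstream of and outside the GENCODE gene whose counts are given.

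All 10 members passed the filter on low counts, with 120 to 6657 counts per library. Their log2 fold changes (knockout minus WT throughout) were above 0 for 5 members and below 0 for 5, with a median of 0.01. None was higher and 1, Snhg11, was lower at an adjusted p of 0.05, beside 5.21% and 2.53% of all tested genes and 7.74% in either direction. The CPM values (counts scaled to library size by TMM) of the WT and knockout groups did not overlap for 6 members, 2 higher and 4 lower, beside 15.6% and 13.5% of all tested genes and 29.1% in either direction. Because the members were chosen with this contrast known, nothing is read from these counts. The count of lower members was 1 also without knockout libraries 2 and 3.

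**Figure D1:**
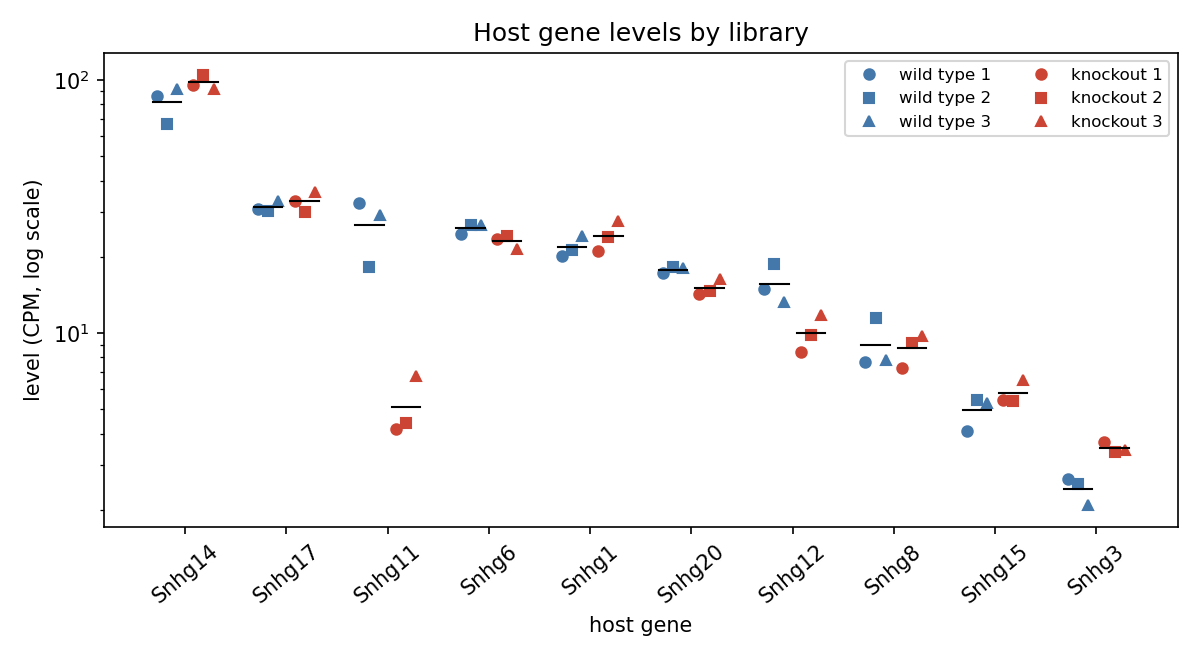
Level of each of the 10 host genes in each library, in CPM on a log axis. Blue marks are the 3 WT libraries and red marks are the 3 knockout libraries, with 1 marker shape per replicate number. The knockout marks of Snhg11 (4.19 to 6.75 CPM) stand below its WT marks (18.3 to 32.6 CPM), while the marks of Snhg1, Snhg8, Snhg15 and Snhg17 overlap.

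Snhg11 (chr2:158375638-158386145, plus strand; exons of 8521 bases in all) had by far the lowest log2 fold change of the members. It held 1944, 1060 and 1681 counts in WT and 288, 279 and 374 in the knockout, or 32.6, 18.3 and 29.3 CPM against 4.19, 4.41 and 6.75 CPM. All 3 knockout libraries lay below all WT libraries, and WT library 2 was the lowest of its group. The group means were 26.7 ± 7.50 and 5.12 ± 1.42 CPM (SD, n = 3), a 5.22-fold higher mean in WT and a log2 fold change of -2.39 (SE 0.27). The log2 fold change was -2.66 without knockout libraries 2 and 3, whose Ttr counts were the highest, and -2.60 without WT library 2. GENCODE M21 types Snhg11 as protein-coding, while RefSeq lists it as a long non-coding RNA. In bulk tissue, fewer cells of a type and less RNA per cell cannot be told apart.

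Marker genes of other cell types moved with the genotype. Of the meningeal markers, 10 of 10 were called higher in the knockout (edgeR), and their summed level was 19.6 to 26.6 CPM in WT and 523 to 712 CPM in the knockout. Microglial and macrophage markers were higher for 7 of 9 (30.1 to 34.1 against 103 to 130 CPM), endothelial markers for 5 of 7 (221 to 249 against 380 to 467 CPM) and dividing-cell markers for 6 of 7 (338 to 421 against 577 to 588 CPM). Radial glia and intermediate progenitor markers were higher for 3 of 7 (607 to 713 against 760 to 895 CPM). Of 4 choroid plexus markers tested out of 6, 1 was higher, their sum was 0.775 to 1.09 against 9.05 to 486 CPM, and Folr1 was at 0 in every WT library. Cortical neuron markers were present in all libraries, at 5570 to 6740 CPM in WT and 5020 to 5440 CPM in the knockout, with 2 of 10 lower, none higher and a median log2 fold change of -0.20. The neuronal sums of the groups did not overlap. The part of these shifts in the values of Snhg11 or any other member was not tested.

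Snhg12 (chr4:132308623-132311024, plus strand) had the next lowest fold change. It held 889, 1083 and 756 counts in WT and 579, 619 and 656 in the knockout, or 14.9, 18.7 and 13.2 CPM against 8.43, 9.78 and 11.8 CPM. The groups did not overlap, with knockout library 3 the nearest to the WT range. The means were 15.6 ± 2.80 and 10 ± 1.72 CPM (SD, n = 3), with a log2 fold change of -0.64 (SE 0.17) and a mean 1.56-fold higher in WT. The fold change was -0.49 without WT library 2, the library in which Snhg12 was highest.

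Snhg3 (chr4:132348014-132353686, minus strand), the host of Snora73a and Snora73b, had the highest fold change of the members. Its counts were 158, 147 and 120 in WT and 254, 213 and 192 in the knockout, or 2.65, 2.53 and 2.09 CPM against 3.70, 3.37 and 3.46 CPM. All knockout libraries lay above all WT libraries, but these counts may stand for few fragments. The means were 2.42 ± 0.292 and 3.51 ± 0.170 CPM (SD, n = 3), a ratio of 1.45 and a log2 fold change of 0.53 (SE 0.20). Rcc1, which encodes the exchange factor of the GTPase Ran, shares 135 exonic bases with Snhg3 on the same strand, and reads there cannot be told apart. Rcc1 was at 34.3 ± 2.83 CPM in WT and 40 ± 1.89 CPM in the knockout (SD, n = 3; log2 fold change 0.22, SE 0.09, adjusted p = 0.195, edgeR). The lincRNA Gm17300 lies opposite Snhg3 over 705 exonic bases and had a log2 fold change of -0.15 (SE 0.21). The labels do not state whether the counting used strand, so reads of antisense partners may be mixed.

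**Figure D2:**
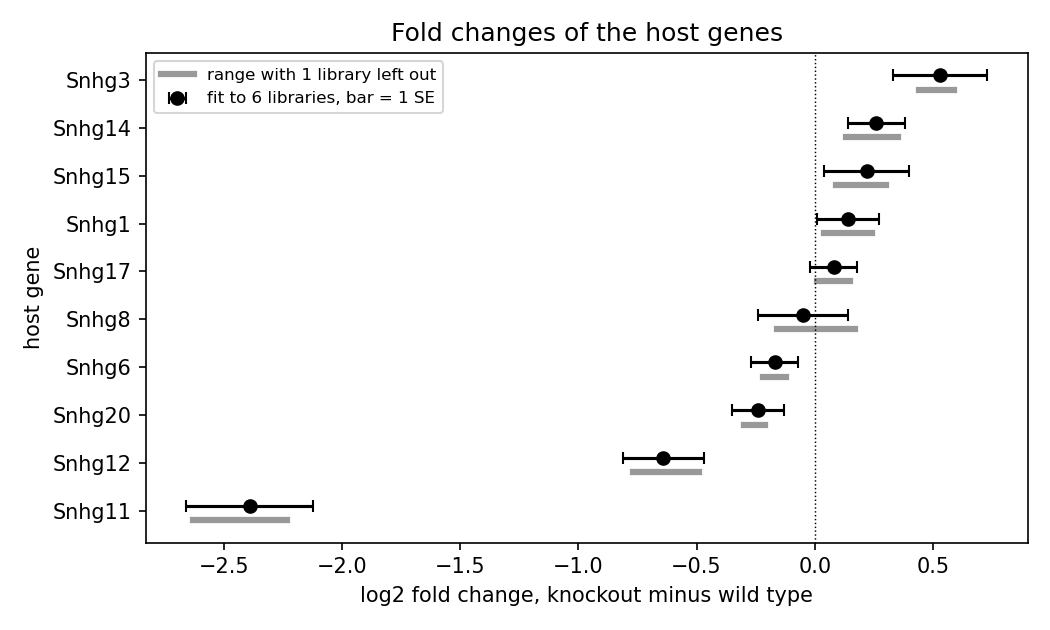
Log2 fold change of each host gene, knockout minus WT, from the fit to 6 libraries (black points, bars of 1 SE) and its range when each library was left out in turn (grey bars). Snhg11 lies at -2.39 with a range from -2.63 to -2.23, and the other 9 members lie between -0.64 and 0.53.

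The members form 2 pairs of neighbouring hosts. Snhg17 (chr2:158353700-158361580, minus strand) lies 14.1 kb from Snhg11 and starts in the opposite direction. Snhg17 held 1842, 1754 and 1901 counts in WT and 2284, 1901 and 2002 in the knockout, or 30.9, 30.2 and 33.2 CPM against 33.2, 30 and 36.1 CPM. The groups overlapped, at means of 31.4 ± 1.56 and 33.1 ± 3.04 CPM (SD, n = 3; log2 fold change 0.08, SE 0.10). The Snhg11 count divided by the Snhg17 count of the same library was 1.06, 0.606 and 0.883 in WT and 0.126, 0.147 and 0.187 in the knockout. Since library size cancels in this ratio, the difference between the neighbours did not rest on the scaling. Ralgapb, on the other side of Snhg11, encodes a subunit of a GTPase-activating complex and had a log2 fold change of 0.21 (SE 0.13).

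In the other pair, Snhg12 and Snhg3 are 37.0 kb apart on chromosome 4 and on opposite strands, with Trnau1ap and the greater part of Rcc1 between them. The Snhg12 count divided by the Snhg3 count was 5.62, 7.39 and 6.32 in the WT libraries and 2.28, 2.90 and 3.41 in the knockout libraries. Every knockout ratio was below every WT ratio, which follows from the separate groups of both genes given above and is no further result. Trnau1ap, which encodes a selenocysteine transfer RNA binding protein and lies 739 bases from Snhg12, had a log2 fold change of -0.02 (SE 0.13). Taf12, a subunit of the general transcription factor TFIID, was at 0.18 (SE 0.11) on the far side of Snhg12. Phactr4, a regulator of protein phosphatase and actin, was at 0.28 (SE 0.08, adjusted p = 0.0707, edgeR) beyond Snhg3.

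**Figure D3:**
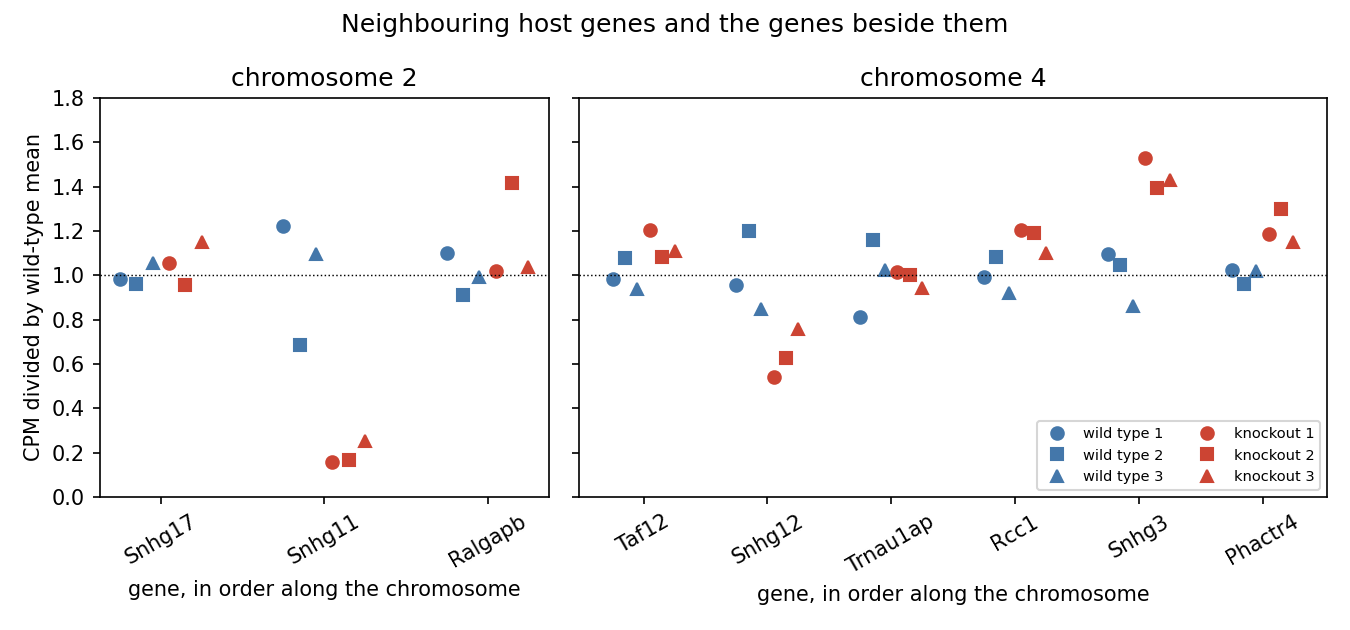
Level of the host genes and the genes beside them on chromosomes 2 and 4, as CPM divided by the WT mean of each gene, for each library. On chromosome 2, of the 3 genes drawn only Snhg11 is set apart between WT (blue) and knockout (red). Lbp, on the far side of Snhg17 and called higher in the knockout, is not drawn. On chromosome 4 the knockout marks of Snhg12 lie below 1. Those of Snhg3 lie above 1, as do those of Taf12, Rcc1 and Phactr4, while those of Trnau1ap lie on both sides of 1.

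Among the 17 nearest tested genes that flank the members and are no members themselves, 1 was called higher and none lower (edgeR). Of all tested genes, 5.21% were called higher and 2.53% lower. The 1 called flanking gene is thus no result about the flanks. That gene was Lbp, the lipopolysaccharide-binding protein, next to Snhg17, with 0, 4 and 0 counts in WT and 111, 100 and 88 counts in the knockout (adjusted p = 0.00242, and 0.0659 without knockout libraries 2 and 3). Slc3a2, which encodes the heavy chain of amino acid transporters and begins 106 bases from Snhg1, was at 0.01 (SE 0.09). Prss12, a serine protease gene beside Snhg8, was at -1.12 (SE 0.35, adjusted p = 0.101), and Mgat5b, a glycosyltransferase gene beside Snhg20, was at -0.24 (SE 0.07, adjusted p = 0.0840).

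Snhg14 (chr7:59307924-59975759, minus strand) has 26093 exonic bases, the most of the members. Its counts were 5139, 3881 and 5290 in WT and 6572, 6657 and 5124 in the knockout, or 86.1, 66.9 and 92.3 CPM against 95.7, 105 and 92.4 CPM. The groups were separate only in that the lowest knockout library was at 92.4 CPM and the highest WT library at 92.3 CPM. The means were 81.8 ± 13.3 and 97.8 ± 6.63 CPM (SD, n = 3), a log2 fold change of 0.26 (SE 0.12). Ube3a, the ubiquitin ligase gene of Angelman syndrome, shares 1803 exonic bases with Snhg14 on the opposite strand. It held 3332, 1956 and 3172 counts in WT and 3825, 3433 and 3153 in the knockout (log2 fold change 0.20, SE 0.18, adjusted p = 0.597, edgeR). WT library 2 was the lowest of the 6 for both genes. It was the lowest also for Gm38393, which overlaps Snhg14 by 27 exonic bases on the same strand, with 896, 486 and 997 counts in WT and 1308, 1174 and 1061 in the knockout (0.48, SE 0.24). Without WT library 2 the log2 fold changes were 0.13 for Snhg14, 0.00 for Ube3a and 0.22 for Gm38393. With the strand handling not known, Snhg14 and Ube3a reads from the shared bases cannot be told apart.

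Other genes of the Prader-Willi and Angelman region did not share one direction. Of 17 listed and 16 tested, none was higher and 2 were lower, beside 5.21% and 2.53% of all tested genes. The median log2 fold change was -0.01. Gabra5, a GABA-A receptor subunit gene, fell from 20.8 ± 2.59 to 9.21 ± 1.45 CPM (SD, n = 3; log2 fold change -1.17, SE 0.15, adjusted p = 0.00192, edgeR). Ndn, which encodes necdin, fell from 300 ± 25.9 to 244 ± 9.11 CPM (SD, n = 3; -0.30, SE 0.08, adjusted p = 0.0464, edgeR), and this call was lost in most fits with a library left out. Snrpn, the protein-coding gene just upstream of Snhg14 on the same strand, was at -0.30 (SE 0.08, adjusted p = 0.0504, edgeR). Snrpn and Snhg14 thus had fold changes of opposite sign.

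Snhg20 and Snhg6 were the other members whose knockout values all lay under the WT values. Snhg20 (chr11:117076008-117078955, plus strand) held 1029, 1058 and 1033 counts in WT and 985, 921 and 905 in the knockout, or 17.2, 18.2 and 18.0 CPM against 14.3, 14.6 and 16.3 CPM. The groups did not overlap, at means of 17.8 ± 0.525 and 15.1 ± 1.09 CPM (SD, n = 3; log2 fold change -0.24, SE 0.11). Gm26083 inside Snhg20 is annotated as a small Cajal body RNA, a class that guides the modification of spliceosomal RNAs, and overlaps the microRNA gene Mir6516. Snhg6 (chr1:9941959-9944118, minus strand), the host of Snord87, held 1473, 1550 and 1521 counts in WT and 1617, 1530 and 1191 in the knockout. In CPM these were 24.7, 26.7 and 26.6 against 23.5, 24.2 and 21.5, with no overlap. Its means were 26.0 ± 1.13 and 23.1 ± 1.41 CPM (SD, n = 3; log2 fold change -0.17, SE 0.10). Mcmdc2 lies opposite Snhg6 over 127 exonic bases and was at 1.96 ± 0.557 CPM in WT (SD, n = 3).

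Snhg1, Snhg8 and Snhg15 were the other members whose groups overlapped, with Snhg17. Snhg1 (chr19:8723475-8726443, plus strand), with 8 snoRNA genes, held 1205, 1233 and 1389 counts in WT and 1444, 1520 and 1529 in the knockout. These were 20.2, 21.2 and 24.2 CPM against 21, 24.0 and 27.6 CPM, or means of 21.9 ± 2.10 and 24.2 ± 3.29 CPM (SD, n = 3; log2 fold change 0.14, SE 0.13). The raw counts of the groups were apart, but the values scaled to library size overlapped. Without knockout libraries 2 and 3 the fold change of Snhg1 was -0.05. Snhg15 (chr11:6525591-6528760, minus strand), the host of Snora9, held 244, 316 and 302 counts in WT and 373, 339 and 361 in the knockout. Its levels were 4.09, 5.45 and 5.27 CPM against 5.43, 5.36 and 6.51 CPM, with means of 4.94 ± 0.739 and 5.77 ± 0.648 CPM (SD, n = 3; log2 fold change 0.22, SE 0.18).

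Snhg8 (chr3:123507552-123508404, minus strand), the host of Snora24, had no stable direction. It held 458, 668 and 446 counts in WT and 498, 576 and 540 in the knockout, or 7.67, 11.5 and 7.79 CPM against 7.25, 9.10 and 9.74 CPM. WT library 2 was the highest of the 6. The means were 8.99 ± 2.18 and 8.70 ± 1.3 CPM (SD, n = 3; log2 fold change -0.05, SE 0.19), and the fold change was 0.17 without WT library 2 and 0.07 without knockout library 1.

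Compared with each other per length of all annotated exons, the members spanned a wide range in WT. Snhg6 was highest at 22.7 ± 0.986 CPM per kb of exon (SD, n = 3), followed by Snhg8 at 10.5, Snhg1 at 7.37, Snhg12 at 6.49 and Snhg20 at 6.38. Snhg17 came next at 4.46, then Snhg15 at 3.63, Snhg11 at 3.14, Snhg14 at 3.13 and Snhg3 at 2.46. The WT ranges of neighbours in this order did not overlap between Snhg6 and Snhg8, Snhg8 and Snhg1, Snhg20 and Snhg17, and Snhg17 and Snhg15. The other 5 steps in the order were within the spread of the WT libraries. In the knockout Snhg11 was at 0.600 ± 0.166 CPM per kb (SD, n = 3), the lowest of the 10, with Snhg3 next at 3.56. The spread among WT libraries also differed, from a coefficient of variation of 2.94% for Snhg20 and 4.35% for Snhg6 to 24.3% for Snhg8 and 28.1% for Snhg11.

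Genes with a pattern like that of Snhg11 were sought among 8786 genes whose mean log2 CPM reached 4, by the root-mean-square difference of log2 CPM over the 6 libraries after centring each gene. Snhg11 itself lay below that level, so genes as low as Snhg11 were not compared, including any with a fall as strong. Among the genes compared, the nearest 3 named genes were Glcci1 at 0.59, Kcnk9 at 0.68 and Sphkap at 0.73. Since a likeness to Snhg11 chose them, their fold changes are a description with no test. Glcci1, a glucocorticoid-induced gene, held 69.1, 45.4 and 72.1 CPM in WT and 24.3, 25.9 and 26.1 CPM in the knockout (log2 fold change -1.29, SE 0.16). WT library 2 was the lowest of its group for Glcci1, as for Snhg11. Gm45062, annotated over Glcci1 on the same strand, had a fitted log2 fold change of 13.13, so the assignment of reads between the 2 is uncertain. Kcnk9, a potassium channel gene, was at 42.5, 31.4 and 19.1 CPM in WT and 10.4, 11.2 and 14.9 CPM in the knockout (-1.35, SE 0.31). Sphkap, which encodes an anchoring protein for protein kinase A, was at 68.3, 51.1 and 34.2 CPM in WT and 19.0, 23.0 and 25.1 CPM in the knockout (-1.20, SE 0.26). For Kcnk9 and Sphkap, WT library 3 and not library 2 was the lowest of its group, and their fold changes were nearer 0 than that of Snhg11.

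Other snoRNA hosts were read beside the members, from lists set by known function. Of 11 other non-coding hosts, 7 were tested, and none was called higher or lower, beside 5.21% and 2.53% of all tested genes. Their median log2 fold change was -0.01, with a range from -0.54 to 0.58. At an unadjusted p of 0.05, 2 of the 7 passed, and DESeq2 and limma-voom called none. The share of all tested genes under an unadjusted p of 0.05 is not given. Nothing is therefore read from the unadjusted counts of this list or of those below. Of the 7 hosts, the 2 with the smallest p were Snhg18 at 0.58 (SE 0.19, adjusted p = 0.113, edgeR) and Dancr at -0.54 (SE 0.20, adjusted p = 0.144, edgeR). Gas5, the host of many C/D snoRNAs and a classic target of nonsense-mediated decay, was at 106 ± 10.6 CPM in WT and 105 ± 8.92 CPM in the knockout (SD, n = 3). The sizes at both ends of this list were like those of Snhg3 and Snhg12, and none came near that of Snhg11.

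Protein-coding hosts, mostly genes of ribosomal proteins and translation factors, lay closer to 0. None of 33 was called in either direction by edgeR (3 at an unadjusted p of 0.05), beside 7.74% of all tested genes. The median was -0.07, with a range from -0.23 to 0.19. Hspa8, a heat shock chaperone, was at 0.17 (adjusted p = 0.192) and Rpsa, a ribosomal protein gene, was at -0.19 (adjusted p = 0.214). Of 150 annotated snoRNA genes with a name, 39 were tested. None was called by edgeR, DESeq2 or limma-voom, beside 7.74% of all tested genes with edgeR, and none had an unadjusted p under 0.05. Their median was 0.08, and the 2 with the smallest p were Snord58b at 1.48 (SE 0.73, adjusted p = 0.275) and Snora70 at -0.85 (SE 0.47, adjusted p = 0.345), from few counts.

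**Figure D4:**
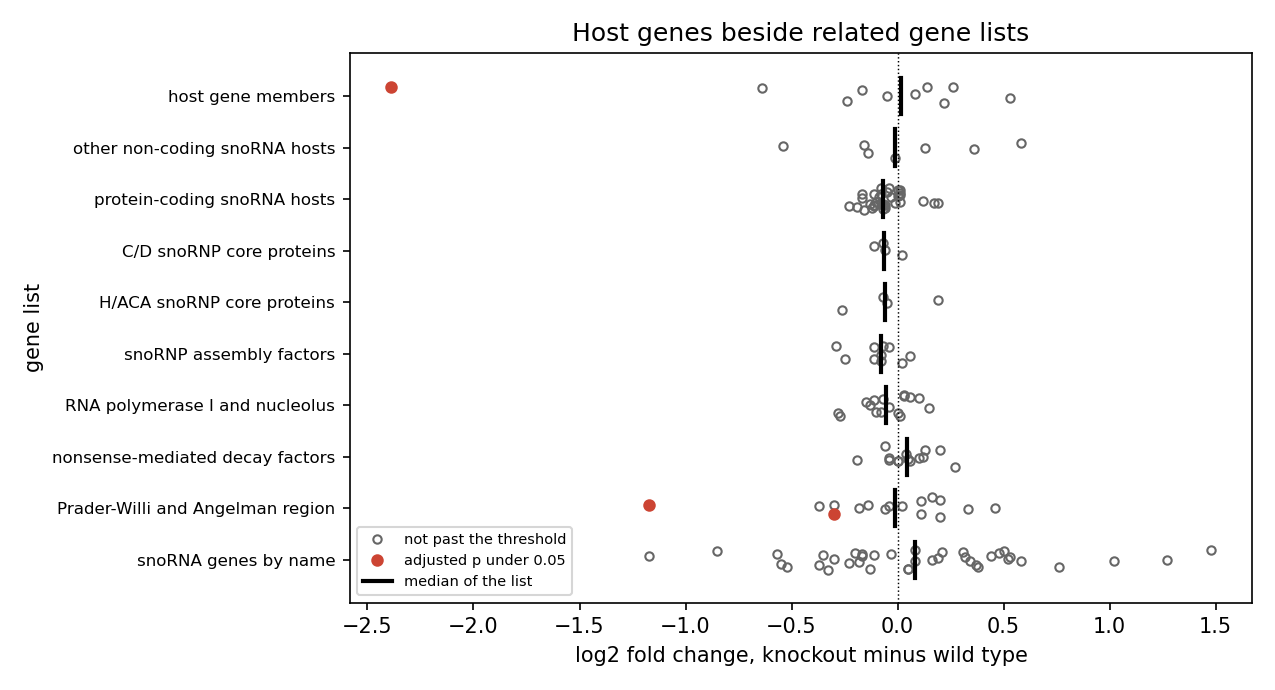
Log2 fold changes, knockout minus WT, of the host gene members and of related gene lists, with 1 point per tested gene, filled where the adjusted p of edgeR was under 0.05, and a black line at the median of each list. Snhg11 at -2.39 stands alone at the left, Gabra5 and Ndn are filled in the Prader-Willi and Angelman region, and the other lists have no filled point.

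The machinery that makes and uses snoRNAs was measured well and had no called gene, beside 7.74% of all tested genes called in either direction. With 4 to 16 genes per list, nothing is read about a list from the lack of a call. Of the 4 core proteins of C/D particles, none was called (none at an unadjusted p of 0.05), with a median of -0.07, Nop56 at -0.11 (adjusted p = 0.480, edgeR) and Snu13 at -0.07 (adjusted p = 0.666). Of the 4 core proteins of H/ACA particles, none was called (1 unadjusted), with Nhp2 at -0.26 (adjusted p = 0.168) and Dkc1, the pseudouridine synthase, at 0.19 (adjusted p = 0.261). None of 10 assembly factors was called (2 unadjusted), with Pih1d1 at -0.25 (adjusted p = 0.0938) and Shq1 at -0.29 (adjusted p = 0.176). None of 16 genes of RNA polymerase I and the nucleolus was called (2 unadjusted), with Taf1c at -0.27 (adjusted p = 0.112) and Polr1d at -0.28 (adjusted p = 0.201). None of 14 factors of nonsense-mediated decay, the pathway that removes many spliced host RNAs, was called (2 unadjusted), with Upf3b at 0.27 (adjusted p = 0.154) and Upf2 at 0.20 (adjusted p = 0.197). DESeq2 and limma-voom also called none of these 5 lists' genes. The medians of these lists ran from -0.08 to 0.04, beside 0.00 over all tested genes.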

How the data were processed

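The authors deposited 1 gene table for 6 libraries. Its values are whole-number estimated counts, as deposited, and needed no rounding. In WT library 1, 1298 genes had a count of 4, against 888 at 1, 632 at 2, 492 at 3 and 318 at 5. FastQC 0.11.9, Trim Galore 0.4.4, HISAT2 2.0.5, StringTie 1.3.4 and the build mm10 are named per the submitters' processing notes, with no role given. The counting program, the annotation release and the strand handling were not given in the sources used here. The p-values carry the replicate limits stated with the samples.

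From the deposited counts, genes were named through GENCODE M21 (55141 of 55401 entries, the unnamed holding at most 0.0238% of counts), kept by filterByExpr, scaled by TMM (factors 0.9836 to 1.023) and compared by the robust quasi-likelihood test of edgeR 4.0.16 in R 4.3.3. Every p-value was adjusted by the Benjamini-Hochberg method over all 19844 genes, with a threshold of 0.05. A log2 fold change is knockout minus WT from the deposited counts, and its SE is the size of the fold change over the square root of F. CPM is given as mean ± SD of 3 libraries. DESeq2 1.42.0 and limma 3.58.1 (voom with sample weights) were alternatives, with other scalings, other filters, counts divided by 4, a replicate block and libraries left out.

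The members and the lists were chosen with earlier results of these data known. All members were named. Of each list the genes past the threshold were named, otherwise the 2 with the smallest p. Named besides were overlapping genes, flanking genes past the threshold, and the 3 genes most like the member called in a direction. The search for like genes took only genes whose mean log2 CPM reached 4, with provisional symbols left out. Gas5 and the flanking genes Ralgapb, Trnau1ap, Taf12, Phactr4, Slc3a2, Prss12, Mgat5b and Snrpn were added after their values were seen. Nop56, Dkc1 and Ncl stand in 2 lists. RefSeq promoters were matched for 9 of the 10 members. Small-RNA sequences are from GENCODE M21 transcripts. No interval or floor from counts is given, since the number of fragments behind a count is uncertain.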

Additional observations from a re-analysis of the deposited data

How the results depend on the processing

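Across 15 alternatives the log2 fold change of Snhg11 ran from -2.66 to -2.23 and that of Snhg12 from -0.88 to -0.49, as descriptions. The number of lower members was 2 instead of 1 with DESeq2, limma-voom, no filter, the filter at 1 CPM and counts divided by 4, and with 1 library left out it ran from 1 to 2. Of the other members, Snhg8 was above 0 in 2 alternatives and Snhg1 below 0 in 1. The remaining 6 kept their sign in all 15. Over all genes, DESeq2 called 1483 higher and 921 lower. Leaving out 1 library gave 472 to 1402 higher and 137 to 956 lower. Without knockout libraries 2 and 3, where the lone knockout library is assumed to vary like the rest, 262 were higher and 43 lower. In the related lists the 2 lower genes became 1 to 3 with a library left out and 0 without knockout libraries 2 and 3, and 0 to 2 were higher. Deviations from the group mean had correlations of 0.08, 0.00 and -0.03 between libraries of the same replicate number, over 13716 genes. Those between libraries of different numbers ran from -0.13 to 0.11. With 3 libraries per group, whether the replicate numbers mark a shared litter or batch cannot be told from these values. The replicate block gave 686 higher and 255 lower genes, and 1 lower gene in the related lists. Ndn passed in 8 of 15 and Gabra5 in 14, with an adjusted p of 0.104 without knockout libraries 2 and 3. Csmd3 did not pass with the replicate block (adjusted p = 0.0664), without WT library 1 (0.0826), or without knockout library 1, 2 or 3 (0.0905, 0.0741 and 0.101) or both 2 and 3 (0.380). The causes were not tested. The fragments behind a deposited count are uncertain, which limits members with few counts, such as Snhg3 and Snhg15 in all libraries and Snhg11 in the knockout. The snoRNAs themselves were hardly measured.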
